A study of Mus musculus with 18 samples.

Results

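The genes described here cover the uptake of sugar, glycolysis, lactate handling, the entry into the pentose phosphate pathway and the gate from pyruvate to the mitochondrial matrix in mouse fat. The set has 35 genes of the 45151 gene symbols that all files hold. Its members were chosen by pathway and found by an exact match of their symbols, with pyruvate kinase listed under its older symbol Pkm2. All 35 members were found in each of the 18 files. RNA-seq had been carried out on male wild type C57BL/6J mice, 16 weeks old and fed regular chow, with 6 samples each of inguinal (iWAT) adipocytes, epididymal (eWAT) adipocytes and brown adipose tissue (BAT). The iWAT and eWAT adipocytes were floated off after a collagenase digestion at 37 °C, whereas BAT was snap-frozen and extracted as whole tissue, although 1 label field calls it BAT adipocytes. In any comparison with BAT, the depot cannot be told apart from how it was prepared, and in such bulk RNA fewer cells of a type and less RNA per cell cannot be told apart. The labels give no line, transgene or treatment that sets the groups apart, and no statement of which samples came from the same mouse.

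Glucose enters fat cells through facilitative transporters, of which GLUT4 (Slc2a4) moves to the cell surface in response to insulin. Hexokinase traps it as glucose 6-phosphate, phosphofructokinase commits it to glycolysis, and pyruvate kinase ends the pathway. Pyruvate then leaves as lactate or is converted to acetyl-CoA by the pyruvate dehydrogenase complex, which the kinases Pdk1 to Pdk4 switch off by phosphorylation. White adipocytes use this carbon for the glycerol backbone of triglycerides and for fatty acids, and brown fat takes up large amounts of glucose when it produces heat.

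Levels are given as RPKM, reads divided by a row's length and by the total for that sample. Totals of reads per sample were between 22929576 and 34512470. In iWAT and BAT each row is a gene with merged exons, and the coordinates given are those of that row in mm9. In eWAT each row is 1 transcript, and the most-read transcript row of each member was used. The merged row was between 1 and 3.85 times as long as the eWAT row (median 1.41). An eWAT level and a level in another depot therefore rest on different rows, except for Pgam1, and depot and kind of row cannot be told apart. For this reason a direction against eWAT is given only where it passed on read counts and also per row length. Row lengths also enter comparisons between genes. The merged row of Pfkm was 1.09 times and that of Pfkl 2.34 times as long as the eWAT row. The order of genes by RPKM and the family shares below therefore depend on the rows. In iWAT, Pfkm made up 28.4% of phosphofructokinase RPKM and 11.9% of phosphofructokinase reads. Ranges below are over the 6 samples of a depot, and samples carry the number in their title. The sources do not say whether 6 samples of a depot are 6 separate animals, so that p-values measure the spread between these samples only.

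Marker genes were summed as RPKM to check the samples. The sum of 6 brown adipocyte markers was 2720.2 to 3408 in BAT, 78.6 to 122 in iWAT and 12.3 to 24.9 in eWAT. The sum of 6 adipocyte markers was lower in BAT (5808 to 7188) than in iWAT (11044 to 16821) or eWAT (9313 to 17091). A pair of samples stood apart. In BAT sample 12 the sum of 8 skeletal muscle markers was 1547, whereas it was 10.9 to 146 in the other BAT samples. In eWAT sample 15 the sum of 6 macrophage markers was 2013, whereas it was 143 to 483 in the other eWAT samples, 27.8 to 144 in iWAT and 21.2 to 49.0 in BAT. None of these muscle or macrophage markers was at 0 in all samples of a depot. The summed epididymis markers were 83.7 in eWAT sample 15, 99.9 in eWAT sample 14, 3.56 in sample 13 and below 0.01 in the other 3. All 4 red blood cell markers with enough reads for a test were higher in BAT than in iWAT, among them the globin gene Hba-a1 with a mean RPKM of 113 ± 81.5 in iWAT and 416 ± 148 in BAT (log2 fold change 2.13, adjusted p = 6.46e-04). The part of these cells in the members' values was not tested.

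Between iWAT adipocytes and BAT, most of the pathway differed, and its parts did so in different directions. Of 34 members with enough reads for a test, 21 were higher in BAT, 7 were lower and 6 did not pass (edgeR's quasi-likelihood test, adjusted p under 0.05). These comparisons call much of the transcriptome: 67.6% of the 19733 rows tested passed, 33.6% higher in BAT and 34.0% lower. The members' share of calls toward BAT can be read against those figures, and their median log2 fold change (BAT over iWAT) of 0.89 against −0.01 over all rows. With a log2 fold change of at least 1 in size also required, 22 of the 34 members passed, beside 32.2% of all rows. The RPKM ranges of the depots did not overlap for 25 of the 34 members, beside 47.7% of all rows. The split depends on the scaling. With library totals in place of TMM factors, 20 members were higher and 10 lower, and the median of all rows moved to −0.27 and the calls over all rows went from 6626 higher and 6711 lower to 4732 and 9107. Aldoc, the aldolase of brain, was not tested, with 0 to 5 reads per iWAT sample and 9 to 19 per BAT sample. Without BAT sample 12 the members' counts were again 21 and 7. These counts and the median include genes whose coding sequence is not unique in the genome, as given below. The levels of such genes are uncertain, and they were called higher or not called, with none called lower.

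**Figure D1:**
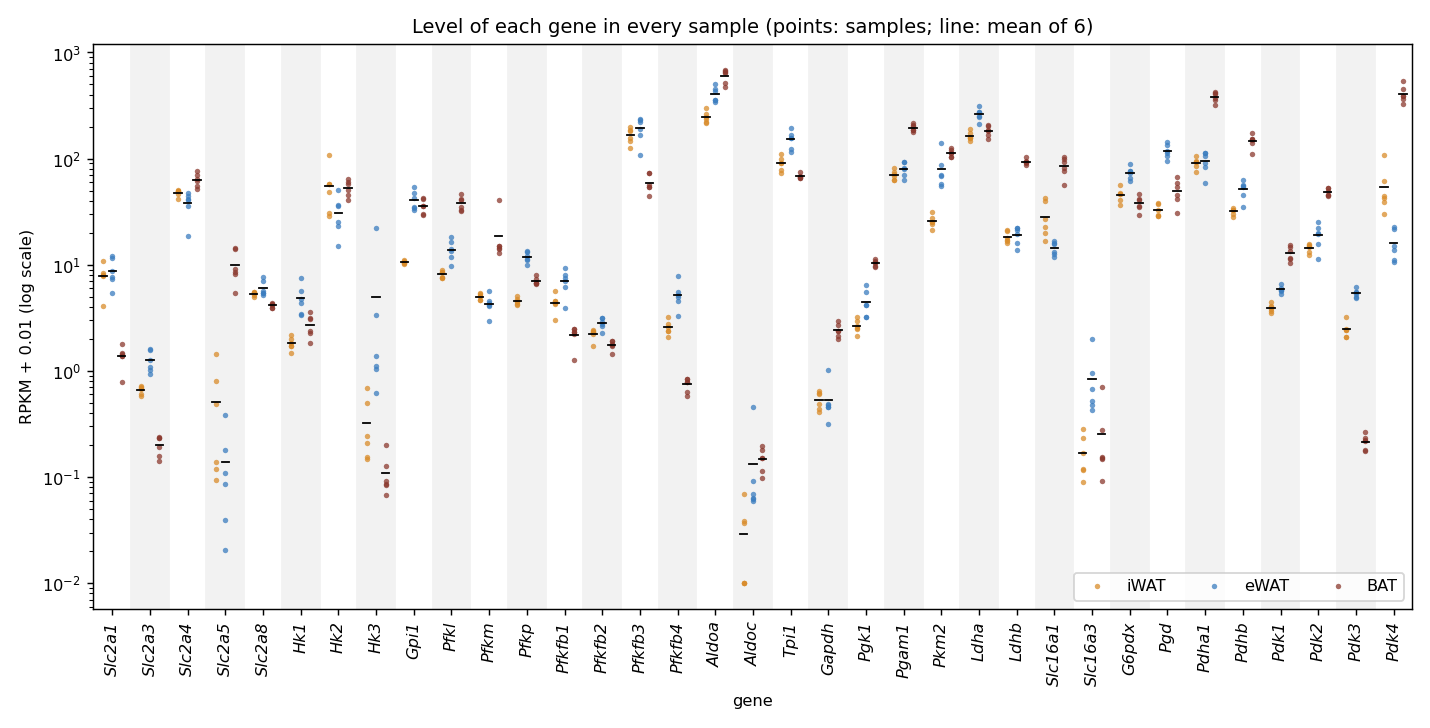
RPKM of each of the 35 genes in every sample, plotted as RPKM + 0.01 on a log scale, with points for samples coloured by depot and a black line at the mean of 6. Aldoa has the highest median in each of the 3 depots, and Aldoc and Slc16a3 have means below 1 in each.

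Opposite directions were seen among the sugar transporters. The insulin-responsive GLUT4 (Slc2a4, chr11:69747786-69761692) had the highest mean RPKM of the 5 sugar transporters in every depot. Slc2a4 RPKM ran from 41.8 to 50.5 (median 49.3) in iWAT, from 18.5 to 47.7 (median 41.2) in eWAT and from 52.1 to 76.3 (median 62.9) in BAT. It was 1.59-fold higher in BAT than in iWAT, with a log2 fold change of 0.67 ± 0.11 (SE, adjusted p = 1.34e-04), and the ranges of these depots did not overlap. GLUT4 was lower in eWAT than in iWAT, with −0.62 on counts (adjusted p = 0.0114) and −0.74 per length (adjusted p = 0.00179). The lowest eWAT value was that of sample 15, which stood apart in its macrophage markers, and without it GLUT4 was still lower in eWAT on both scales. GLUT4 made up 77.1% ± 2.98 of the summed RPKM of the 5 transporters in iWAT, 80.3% ± 2.28 in BAT and 69.0% ± 9.62 in eWAT (SD, n = 6). The difference of this share between iWAT and BAT did not pass (exact two-sided permutation test, p = 0.0584, adjusted p = 0.0779 over 8 families).

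The basal glucose transporter GLUT1 (Slc2a1, chr4:118781316-118809935) showed the opposite pattern. Slc2a1 RPKM ran from 4.04 to 10.8 (median 7.97) in iWAT, from 5.42 to 11.99 (median 8.21) in eWAT and from 0.774 to 1.78 (median 1.41) in BAT. Every BAT sample lay below every iWAT sample, a 4.78-fold lower level with a log2 fold change of −2.26 ± 0.21 (SE, adjusted p = 3.49e-07). The level in BAT was also lower than in eWAT, at −2.23 on counts (adjusted p = 1.29e-07) and −2.01 per length (adjusted p = 2.76e-07), and eWAT against iWAT did not pass on both scales. GLUT3 (Slc2a3), a transporter of high affinity known from neurons, had the same order of medians at a lower level. Slc2a3 RPKM ran from 0.572 to 0.709 (median 0.670) in iWAT, from 0.932 to 1.60 (median 1.18) in eWAT and from 0.132 to 0.227 (median 0.203) in BAT. It was 2.86-fold lower in BAT than in iWAT (log2 fold change −1.52 ± 0.14 SE, adjusted p = 2.44e-07), and higher in eWAT than in iWAT (log2 fold change 0.63 on counts, adjusted p = 0.00426, and 0.52 per length, adjusted p = 0.00644).

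The fructose transporter GLUT5 (Slc2a5, chr4:149493392-149518278) had the largest change toward BAT of all 35 members. Slc2a5 RPKM ran from 0.0830 to 1.43 (median 0.302) in iWAT, from 0.0107 to 0.376 (median 0.0881) in eWAT and from 5.39 to 14.4 (median 8.82) in BAT. The BAT samples lay above all others, and the log2 fold change over iWAT was 4.604 ± 0.60 (SE, adjusted p = 1.01e-05), a 24.3-fold higher level. The iWAT samples were far apart, with 9 to 112 reads, and eWAT samples had 1 to 31 reads. GLUT5 was lower in eWAT than in iWAT on both scales (log2 fold change −2.15 on counts, adjusted p = 0.0346, and −2.41 per length, adjusted p = 0.00928), but on counts it did not pass without eWAT sample 15, at −1.94 (adjusted p = 0.0711), or with a replicate block, at −2.12 (adjusted p = 0.0851). GLUT5 took 12.4% ± 2.83 of the transporters' RPKM in BAT and 0.777% ± 0.806 in iWAT, whereas GLUT1 took 1.78% ± 0.571 in BAT and 12.5% ± 3.12 in iWAT. GLUT8 (Slc2a8), which resides on internal membranes, had a mean RPKM of 4.15 ± 0.194 in BAT, 6.04 ± 1.03 in eWAT and 5.34 ± 0.247 in iWAT. The BAT samples (3.87 to 4.35) all lay below the iWAT samples (4.93 to 5.58) in Slc2a8 RPKM. Its log2 fold change between BAT and iWAT was −0.10 ± 0.065 (SE, adjusted p = 0.195). Without TMM factors it was −0.36 (adjusted p = 3.08e-04).

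Promoters are shown for the transporter and the Pdk gene that changed most in each direction between iWAT and BAT, since these pairs are the clearest contrasts within a family. The sequences are RefSeq promoters (GRCm38.p6), each found once in the mm9 genome by an exact match, at chr4:149493203-149493391 for Slc2a5 (plus strand, 189 bases), chr4:118781100-118781315 for Slc2a1 (plus strand, 216 bases), chr6:5446310-5446528 for Pdk4 (minus strand, 219 bases) and chrX:91077541-91077739 for Pdk3 (minus strand, 199 bases). They run 5′ to 3′ and stop where the gene's merged row begins. Capitals mark GC boxes (GGGCGG on either strand), to which factors of the Sp family bind.
Slc2a5: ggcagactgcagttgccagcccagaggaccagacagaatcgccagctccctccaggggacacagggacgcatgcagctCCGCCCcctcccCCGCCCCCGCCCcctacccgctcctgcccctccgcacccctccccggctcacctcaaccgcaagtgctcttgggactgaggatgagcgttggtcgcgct
Slc2a1: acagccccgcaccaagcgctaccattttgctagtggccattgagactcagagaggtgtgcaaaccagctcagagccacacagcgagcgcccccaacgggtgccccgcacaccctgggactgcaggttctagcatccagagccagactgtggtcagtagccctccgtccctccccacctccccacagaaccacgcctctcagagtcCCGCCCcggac
Pdk4: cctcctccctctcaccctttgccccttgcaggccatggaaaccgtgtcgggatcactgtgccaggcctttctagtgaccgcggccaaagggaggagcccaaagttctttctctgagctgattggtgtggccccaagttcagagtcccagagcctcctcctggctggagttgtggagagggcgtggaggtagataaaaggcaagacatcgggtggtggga
Pdk3: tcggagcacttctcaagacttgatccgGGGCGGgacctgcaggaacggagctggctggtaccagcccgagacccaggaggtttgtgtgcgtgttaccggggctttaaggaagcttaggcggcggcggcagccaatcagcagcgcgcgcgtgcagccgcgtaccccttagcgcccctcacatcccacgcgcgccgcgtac
The Slc2a5 stretch holds 3 GC boxes, those of Slc2a1 and Pdk3 hold 1 each and that of Pdk4 holds 0. Over the 250 bases upstream of the start, a GC box on either strand was found in 32.7% of all 32851 RefSeq promoters and in 24 of 51 promoters of the 33 members that have an entry. The hypoxia response core ACGTG was found in 16.6% of all promoters and in 20 of the 51. The E-box CACGTG, which contains that core, was in 6.02% of all and in 6 of the 51, at Ldha, Pdk2, Pfkfb2, Pfkfb3, Pfkm and Slc16a1. The motif TNAAGGTCA of estrogen-related receptors was in 1.14% of all and in 0 of the 51. Such a match is a description of these letters and not a binding site.

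Hexokinase 2 (Hk2, chr6:82675019-82724448), the insulin-regulated form of muscle and fat, had the highest mean RPKM of the hexokinases in all depots. Hk2 RPKM ran from 28.5 to 107 (median 52.5) in iWAT, from 15.1 to 50.1 (median 30.5) in eWAT and from 40.99 to 64.5 (median 54.6) in BAT. The iWAT samples spanned the BAT samples, and the log2 fold change between them was 0.23 ± 0.28 (SE, adjusted p = 0.476). Without TMM factors it was −0.039 (adjusted p = 0.904). The level in eWAT was lower than in both other depots on both scales, but with a replicate block the call against iWAT was lost, at −1.03 (adjusted p = 0.05002) on counts. BAT over eWAT was 1.29 on counts (adjusted p = 0.00120) and 1.49 per length (adjusted p = 3.00e-04), and eWAT over iWAT was −1.01 on counts (adjusted p = 0.0222) and −1.24 per length (adjusted p = 0.00269). Hk2 made up 95.5% ± 2.16 of the hexokinase RPKM in iWAT and 94.9% ± 1.81 in BAT (SD, n = 6), with an exact two-sided permutation p of 0.617, and 75.9% ± 21.6 in eWAT. The mitochondria-bound Hk1 had a mean RPKM of 2.70 ± 0.662 in BAT, 4.84 ± 1.54 in eWAT and 1.81 ± 0.245 in iWAT, higher in BAT than in iWAT at 0.84 ± 0.15 (SE, adjusted p = 2.43e-04), with overlapping ranges.

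Hk3, a hexokinase known from myeloid cells, was low apart from 1 sample. Hk3 RPKM ran from 0.138 to 0.678 (median 0.215) in iWAT, from 0.606 to 22.3 (median 1.24) in eWAT and from 0.0574 to 0.189 (median 0.0790) in BAT. The eWAT maximum was sample 15 at 22.3, and the other 5 eWAT samples had a mean of 1.4997 ± 1.09. In eWAT sample 15 Hk3 lay above Hk2, which was at 15.1 there. Hk3 was lower in BAT than in iWAT (log2 fold change −1.39 ± 0.45 SE, adjusted p = 0.0133), although their ranges overlapped, and higher in eWAT than in iWAT (log2 fold change 3.70 on counts, adjusted p = 0.00289, and 3.59 per length, adjusted p = 0.00118). Without sample 15 the eWAT difference from iWAT was 1.91 (adjusted p = 0.00522) on counts, and with a replicate block it did not pass, at 2.34 (adjusted p = 0.0671). The summed macrophage markers were ordered like Hk3 across the depots, at 21.2 to 49.0 in BAT and 27.8 to 144 in iWAT and 143 to 2013 in eWAT, and their part in the Hk3 values was not tested.

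**Figure D2:**
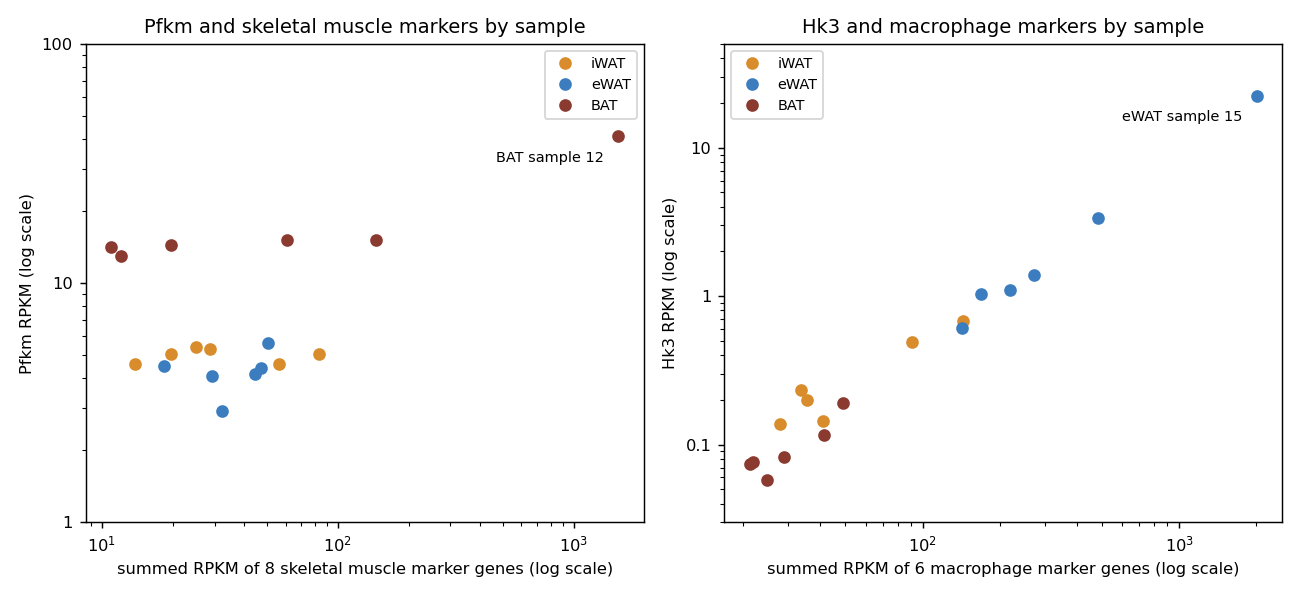
Pfkm RPKM against the summed RPKM of 8 skeletal muscle markers (left) and Hk3 RPKM against the summed RPKM of 6 macrophage markers (right), both on log scales, with 1 point per sample coloured by depot. BAT sample 12 lies apart in the left panel and eWAT sample 15 in the right panel, and the other 5 BAT samples keep a Pfkm level above all iWAT and eWAT samples.

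From glucose 6-phosphate to fructose bisphosphate, all 4 enzymes were higher in BAT than in iWAT. Glucose phosphate isomerase (Gpi1, chr7:34986346-35015324) ran from 10.1 to 10.99 (median 10.51) in iWAT, from 33.1 to 53.7 (median 38.8) in eWAT and from 29.3 to 42.8 (median 35.7) in BAT, and was 4.11-fold higher in BAT than in iWAT (log2 fold change 2.04 ± 0.12 SE, adjusted p = 3.09e-09). Its merged row is 3.85 times as long as its eWAT row, and eWAT against iWAT gave 0.00058 on counts (adjusted p = 0.999) and 1.54 per length (adjusted p = 4.74e-08). The liver-type phosphofructokinase (Pfkl, chr10:77447738-77472828) had the largest change of the phosphofructokinases. Pfkl RPKM ran from 7.46 to 8.89 (median 8.08) in iWAT, from 9.63 to 18.2 (median 13.7) in eWAT and from 32.4 to 46.8 (median 37.8) in BAT. No BAT sample overlapped with the other depots, and BAT was 5.72-fold higher than iWAT (log2 fold change 2.52 ± 0.12 SE, adjusted p = 6.18e-10). Between eWAT and iWAT its direction turned with the scale (log2 fold change −0.47 on counts, adjusted p = 0.0190, and 0.36 per length, adjusted p = 0.0429), so that none is given.

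The muscle-type phosphofructokinase (Pfkm, chr15:97923020-97962878) was higher in BAT, where 1 sample lay far from the other 5. Pfkm RPKM ran from 4.59 to 5.39 (median 5.05) in iWAT, from 2.92 to 5.604 (median 4.28) in eWAT and from 12.9 to 41.1 (median 14.8) in BAT. The highest BAT value, 41.1, was that of sample 12, in which the skeletal muscle markers were high, and the other 5 BAT samples ran from 12.9 to 15.1 with a mean of 14.3 ± 0.900. Pfkm was higher in BAT than in iWAT with a log2 fold change of 2.18 ± 0.27 (SE, adjusted p = 6.16e-06), and without sample 12 of 1.82 (adjusted p = 2.06e-09). Its share of phosphofructokinase RPKM was 28.4% ± 1.85 in iWAT and 28.2% ± 10.6 in BAT (SD, n = 6, exact two-sided permutation p = 0.998). Without sample 12 it was lower in BAT, at 24.0% ± 1.95 (n = 5, exact permutation p = 0.00649, adjusted p = 0.0173). Pfkl took 45.9% ± 1.55 in iWAT and 60.7% ± 9.57 in BAT, and Pfkp took 25.7% ± 0.811 in iWAT and 11.1% ± 1.41 in BAT. The shares of Pfkl and Pfkp were not tested. The platelet-type Pfkp changed least, from a mean of 4.54 ± 0.338 in iWAT to 7.002 ± 0.527 in BAT (log2 fold change 0.90 ± 0.085 SE, adjusted p = 4.31e-07), with 11.9 ± 1.31 in eWAT.

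The Pfkfb genes encode the enzymes that make and break down fructose 2,6-bisphosphate, the strongest activator of phosphofructokinase. In contrast to phosphofructokinase, no Pfkfb gene was higher in BAT than in iWAT: 3 were lower and Pfkfb2 did not pass, although without TMM factors it was lower too, at −0.34 (adjusted p = 0.00622). Pfkfb3 (chr2:11393057-11475703), the form with the highest kinase activity, was the main member. Pfkfb3 RPKM ran from 126 to 198 (median 168) in iWAT, from 108 to 235 (median 208) in eWAT and from 44.5 to 73.6 (median 55.2) in BAT. It was 2.33-fold lower in BAT than in iWAT (log2 fold change −1.22 ± 0.13 SE, adjusted p = 1.57e-06) and also lower than in eWAT (log2 fold change −0.82 on counts, adjusted p = 1.99e-04, and −1.01 per length, adjusted p = 2.48e-05), and BAT did not overlap with either. Pfkfb3 held 94.7% ± 0.614 of the family's RPKM in iWAT, 92.5% ± 1.78 in BAT and 92.4% ± 2.04 in eWAT. The difference between iWAT and BAT did not pass after adjustment over the 8 families (exact permutation p = 0.0281, adjusted p = 0.0563), whereas by reads in place of RPKM it did (exact permutation test, adjusted p = 0.0289). Pfkfb4, a hypoxia-induced form, was lower in BAT as well. Pfkfb4 RPKM ran from 2.09 to 3.22 (median 2.50) in iWAT, from 3.28 to 7.91 (median 5.05) in eWAT and from 0.573 to 0.834 (median 0.777) in BAT. Its log2 fold change was −1.54 ± 0.12 (SE, adjusted p = 4.05e-08), and no BAT sample overlapped with another depot. Pfkfb1, the liver form, had means of 4.39 ± 0.848 in iWAT and 2.17 ± 0.460 in BAT (log2 fold change −0.74 ± 0.18 SE, adjusted p = 0.00281), and the heart form Pfkfb2 of 2.22 ± 0.264 and 1.75 ± 0.168 (log2 fold change −0.071 ± 0.11 SE, adjusted p = 0.580). In eWAT their means were 6.99 ± 1.82 and 2.81 ± 0.336.

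**Figure D3:**
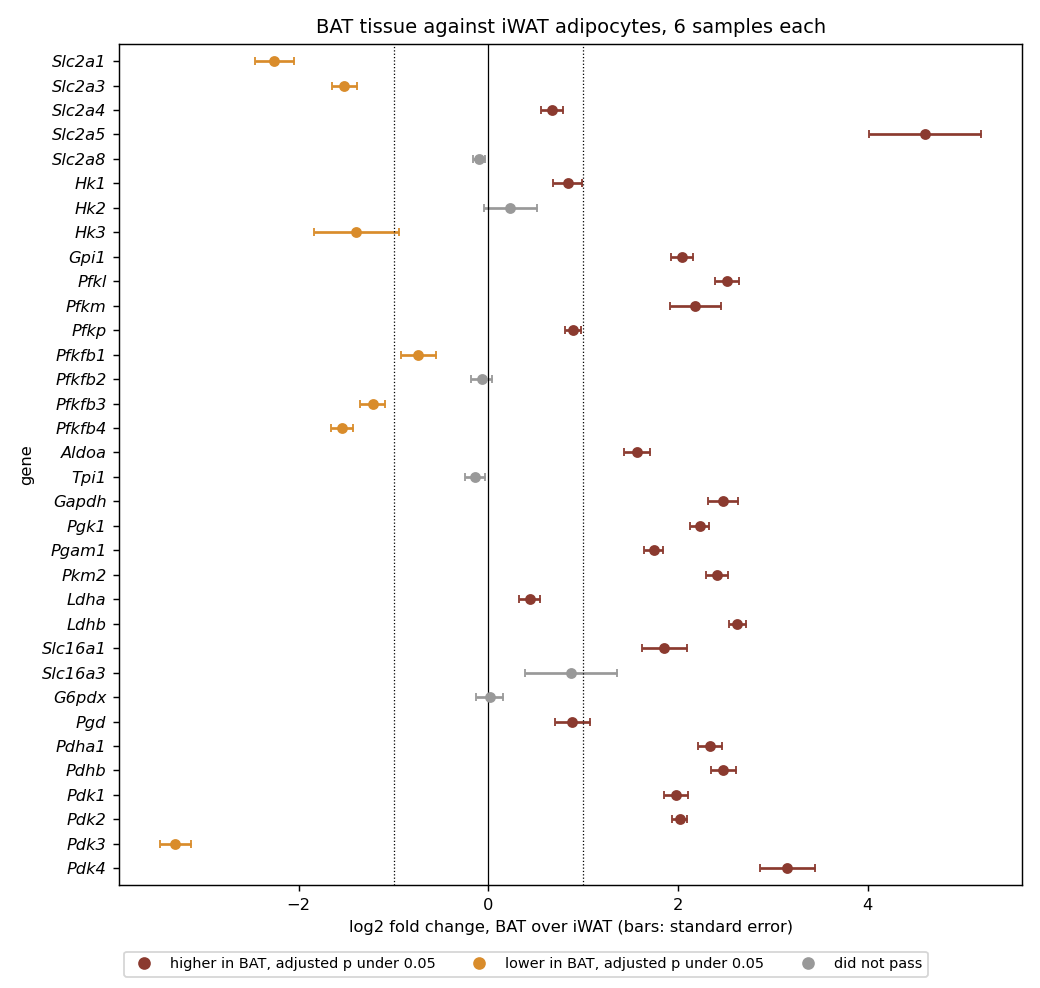
Log2 fold change of BAT over iWAT for the 34 members tested, with bars of 1 standard error and dotted lines at −1 and 1, coloured by the edgeR test. Slc2a5 and Pdk4 lie farthest to the right and Pdk3 and Slc2a1 farthest to the left, and no Pfkfb gene lies among those higher in BAT.

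In lower glycolysis, aldolase A (Aldoa, chr7:133938748-133944265) had the highest median RPKM of the 35 members in each depot. Aldoa RPKM ran from 216 to 302 (median 240.3) in iWAT, from 339.6 to 504 (median 396) in eWAT and from 478 to 689 (median 645) in BAT. It was 2.96-fold higher in BAT than in iWAT (log2 fold change 1.57 ± 0.14 SE, adjusted p = 1.77e-07) with no overlap, and higher than in eWAT (log2 fold change 1.71 on counts, adjusted p = 3.16e-09, and 1.27 per length, adjusted p = 1.94e-07). Aldoc made up no more than 0.125% of aldolase RPKM in any sample. Triose phosphate isomerase (Tpi1), which interconverts the products of aldolase, had means of 68.2 ± 3.29 in BAT, 152 ± 29.3 in eWAT and 90.5 ± 13.7 in iWAT, and did not pass between iWAT and BAT (log2 fold change −0.14 ± 0.10 SE, adjusted p = 0.237). Without TMM factors it was lower in BAT, at −0.41 (adjusted p = 0.00200).

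The next enzymes were all higher in BAT than in iWAT, but their rows share sequence with near-identical copies elsewhere in the genome. Of the 50-base windows in coding exons, 0% of those of Gapdh, Pgk1 and Pgam1 occurred once in the mm9 genome by an exact match. A Gapdh window occurred a median of 43 times. For Pkm2 the share that occurred once was 59.8%, for Pdhb 52.4%, for Ldhb 64.0% and for Ldha 73.4%. For Gpi1 it was 73.7%, for Tpi1 81.4%, for Aldoa 85.5% and for G6pdx 89.9%, and for each of the other 24 members 100%. With up to 1 mismatch allowed, the shares were 23.7% for Pkm2, 24.7% for Pdhb, 25.95% for Ldhb, 34.7% for Ldha and 32.6% for Gpi1. They were 57.2% for Tpi1, 59.5% for Aldoa, 73.7% for G6pdx and 96.8% for Pdha1. How reads with several matches were assigned is not given in the sources used here. The levels of the 11 genes below 100% by an exact match are therefore uncertain. All of the 11 but Tpi1 and G6pdx were among the members called higher in BAT than in iWAT, and none was called lower.

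Glyceraldehyde 3-phosphate dehydrogenase (Gapdh, chr6:125111733-125116485), often used as a reference gene, had few reads in these files. Gapdh RPKM ran from 0.397 to 0.632 (median 0.538) in iWAT, from 0.309 to 1.0001 (median 0.457) in eWAT and from 1.97 to 2.94 (median 2.38) in BAT. In eWAT the row of its spliced RefSeq transcript (1232 bases) held 0 reads in 5 samples and 1 read in sample 8. The reads lay on an unspliced row (3289 bases), with 53, 112, 43, 44, 27 and 50 reads in samples 7, 8, 11, 13, 14 and 15. Gapdh was 5.56-fold higher in BAT than in iWAT (log2 fold change 2.48 ± 0.15 SE, adjusted p = 6.03e-09), a statement on these few reads only. Phosphoglycerate kinase 1 (Pgk1), which makes the first ATP of the pathway, had low values in these files too. Pgk1 RPKM ran from 2.14 to 3.19 (median 2.57) in iWAT, from 3.18 to 6.44 (median 4.20) in eWAT and from 9.45 to 11.2 (median 10.4) in BAT. It was 4.69-fold higher in BAT than in iWAT (log2 fold change 2.23 ± 0.10 SE, adjusted p = 2.41e-10).

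Phosphoglycerate mutase 1 (Pgam1, chr19:41986361-41993155) moves the phosphate before the enolase step. Pgam1 RPKM ran from 62.8 to 82.4 (median 70.1) in iWAT, from 62.2 to 93.5 (median 80.5) in eWAT and from 178 to 217 (median 194) in BAT. It is the 1 member whose row is the same in all files. BAT was 3.35-fold higher than iWAT (log2 fold change 1.74 ± 0.10 SE, adjusted p = 2.93e-09), with no overlap. On the rows shared by all files, where 67.8% of rows passed between eWAT and BAT and 12.9% between eWAT and iWAT, Pgam1 was higher in BAT than in eWAT (log2 fold change 1.51, adjusted p = 7.30e-09) and eWAT against iWAT did not pass (0.14, adjusted p = 0.550).

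Pyruvate kinase of muscle type (Pkm2, chr9:59504310-59527182) yields pyruvate and ATP in the last step of glycolysis. Pkm2 RPKM ran from 21.2 to 31.3 (median 25.2) in iWAT, from 55.7 to 139 (median 69.4) in eWAT and from 103 to 125 (median 114) in BAT. BAT was 5.31-fold higher than iWAT (log2 fold change 2.41 ± 0.11 SE, adjusted p = 4.19e-10), with no overlap. The eWAT maximum was again sample 15, at 139 against a mean of 67.9 ± 12.4 in the other 5. The gene makes either the M1 or the M2 enzyme through exon 9 of 11, which exists in 2 versions of which 1 is spliced in. Both are shown because they are the only coding difference between these products, with capitals where they differ without gaps. The M1 exon lies at chr9:59522836-59523002 and the M2 exon at chr9:59523375-59523541, both on the plus strand of mm9.
M1: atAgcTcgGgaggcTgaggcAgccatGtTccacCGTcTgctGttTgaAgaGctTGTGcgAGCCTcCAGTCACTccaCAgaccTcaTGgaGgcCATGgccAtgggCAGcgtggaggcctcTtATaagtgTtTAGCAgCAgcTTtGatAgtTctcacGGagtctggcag
M2: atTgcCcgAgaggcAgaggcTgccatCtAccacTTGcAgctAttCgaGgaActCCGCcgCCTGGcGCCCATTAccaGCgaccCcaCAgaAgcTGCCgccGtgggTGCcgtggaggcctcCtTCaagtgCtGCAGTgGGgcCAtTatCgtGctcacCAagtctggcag
The exons have 167 bases each, and 103 positions (61.7%) are identical. The eWAT row with the M2 exon held 4136 to 10133 reads (median 4364) and the row with the M1 exon 4109 to 9781 reads (median 4291). The M2 row had more reads in 5 of 6 samples, by a median of 51.5 reads and a range of −12 to 352. As these rows share their other exons apart from the outer ends, most reads count on both. The M1 row runs from 59504383 to 59527179 and the M2 row from 59504415 to 59527182. The difference in reads is therefore not that of exon 9 alone. The merged rows of iWAT and BAT hold no isoform.

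At the branch to lactate, the B subunit gained on the A subunit in BAT. Lactate dehydrogenase A (Ldha), the form that favours lactate production, was the main gene of this step. Ldha RPKM ran from 147 to 191 (median 158) in iWAT, from 214 to 313 (median 263) in eWAT and from 153 to 207 (median 185) in BAT. Its ranges in iWAT and BAT overlapped, at 0.43 ± 0.11 (SE, adjusted p = 0.00369), and without TMM factors the change was 0.16 (adjusted p = 0.147). Lactate dehydrogenase B (Ldhb, chr6:142438769-142456477), the form of heart, was 6.18-fold higher in BAT. Ldhb RPKM ran from 16.0 to 21.1 (median 17.5) in iWAT, from 13.9 to 22.4 (median 20.4) in eWAT and from 86.8 to 104 (median 92.3) in BAT. Its log2 fold change was 2.63 ± 0.087 (SE, adjusted p = 2.37e-11), and all BAT samples lay above all other samples. Ldhb made up 10.0% ± 0.902 of Ldha and Ldhb RPKM in iWAT and 33.9% ± 2.31 in BAT (SD, n = 6). This is a difference of 23.9 percentage points with no overlap (exact two-sided permutation p = 0.00216, the smallest that 924 splits allow, adjusted p = 0.0173 over 8 families). In eWAT the share was 6.82% ± 0.797. By reads in place of RPKM, the share was 5.40% in iWAT, 20.8% in BAT and 5.50% in eWAT. The difference between iWAT and BAT passed by reads too (exact two-sided permutation test, adjusted p = 0.0173). Both genes are among those whose coding sequence is not unique in the genome.

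Lactate and pyruvate cross the membrane through monocarboxylate transporters. MCT1 (Slc16a1, chr3:104442591-104462385) was the main one. Slc16a1 RPKM ran from 16.8 to 42.4 (median 24.7) in iWAT, from 11.7 to 16.9 (median 14.3) in eWAT and from 56.6 to 103 (median 87.9) in BAT. It was 3.62-fold higher in BAT than in iWAT (log2 fold change 1.86 ± 0.24 SE, adjusted p = 8.64e-06), with no overlap, and lower in eWAT than in iWAT (log2 fold change −0.99 on counts, adjusted p = 0.00235, and −1.39 per length, adjusted p = 3.36e-05). The lactate exporter MCT4 (Slc16a3) had a mean RPKM of 0.244 ± 0.229 in BAT, 0.835 ± 0.605 in eWAT and 0.158 ± 0.0756 in iWAT. It did not pass between iWAT and BAT (log2 fold change 0.87 ± 0.49 SE, adjusted p = 0.128), where sample 12 was at 0.696 and the other 5 BAT samples at 0.154 ± 0.0671. MCT4 was higher in eWAT than in iWAT (log2 fold change 2.09 on counts, adjusted p = 0.00605, and 1.97 per length, adjusted p = 0.00349), with 2.01 in sample 15 and 0.601 ± 0.215 in the other 5 eWAT samples. Without sample 15 the difference was 1.59 (adjusted p = 0.0177) on counts. The macrophage and muscle marker sums that move with these samples are given above, and their part was not tested.

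The first dehydrogenases of the pentose phosphate pathway make NADPH for fatty acid synthesis. Glucose 6-phosphate dehydrogenase (G6pdx) did not pass between iWAT and BAT. G6pdx RPKM ran from 36.7 to 56.2 (median 46.2) in iWAT, from 61.5 to 88.6 (median 74.6) in eWAT and from 29.4 to 46.9 (median 38.1) in BAT. The ranges overlapped and the log2 fold change was 0.016 ± 0.14 (SE, adjusted p = 0.928). Phosphogluconate dehydrogenase (Pgd) was 1.85-fold higher in BAT, with overlapping ranges. Pgd RPKM ran from 28.7 to 38.1 (median 31.2) in iWAT, from 95.5 to 144 (median 116) in eWAT and from 30.7 to 67.3 (median 49.3) in BAT. Its log2 fold change was 0.89 ± 0.18 (SE, adjusted p = 6.45e-04), and its direction against eWAT turned with the scale (log2 fold change 0.63 on counts, adjusted p = 0.00335, and −0.55 per length, adjusted p = 0.00885 for BAT over eWAT).

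Both subunits of pyruvate dehydrogenase were higher in BAT than in either white depot. The catalytic alpha subunit (Pdha1, chrX:156560141-156576345) is also the site at which the kinases act. Pdha1 RPKM ran from 74.6 to 106 (median 92.9) in iWAT, from 59.4 to 114 (median 99.0) in eWAT and from 322 to 422 (median 388) in BAT. BAT was 5.04-fold above iWAT (log2 fold change 2.33 ± 0.13 SE, adjusted p = 1.49e-09). The beta subunit (Pdhb) changed by a like amount, 5.58-fold (log2 fold change 2.48 ± 0.13 SE, adjusted p = 1.34e-09). Pdhb RPKM ran from 28.3 to 34.5 (median 32.6) in iWAT, from 35.4 to 63.4 (median 54.8) in eWAT and from 111 to 176 (median 151) in BAT. Neither gene had a BAT sample within the range of iWAT or eWAT. BAT over eWAT was 2.81 on counts (adjusted p = 2.15e-11) and 2.71 per length (adjusted p = 4.25e-11) for Pdha1 and 2.93 on counts (adjusted p = 6.45e-12) and 2.21 per length (adjusted p = 2.71e-10) for Pdhb.

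The kinases that inactivate this complex did not move together: 3 were higher and 1 was lower in BAT than in iWAT. Pdk4 (chr6:5433351-5446309), the form induced by fasting and fatty acids, had the highest level of the kinases in iWAT and BAT. Pdk4 RPKM ran from 30.1 to 109 (median 43.7) in iWAT, from 10.497 to 22.9 (median 14.5) in eWAT and from 324 to 538 (median 388) in BAT. All 6 BAT samples lay above all others, at 8.90 times iWAT (log2 fold change 3.15 ± 0.29 SE, adjusted p = 2.89e-07) and at 5.25 on counts (adjusted p = 5.58e-11) and 5.37 per length (adjusted p = 3.67e-11) against eWAT. Pdk4 was also lower in eWAT than in iWAT (log2 fold change −2.05 on counts, adjusted p = 3.92e-05, and −2.20 per length, adjusted p = 3.78e-06), with no overlap of RPKM ranges. In iWAT, sample 7 was highest at 109. Pdk2, the most widely expressed form, and Pdk1, a target of hypoxia signalling, were both higher in BAT. Pdk2 RPKM ran from 12.4 to 15.5 (median 14.9) in iWAT, from 11.3 to 25.4 (median 19.7) in eWAT and from 44.6 to 52.4 (median 47.6) in BAT. Pdk1 RPKM ran from 3.50 to 4.49 (median 3.90) in iWAT, from 5.25 to 6.52 (median 5.78) in eWAT and from 10.4 to 15.3 (median 12.5) in BAT. Neither overlapped between BAT and the white depots, with 2.02 ± 0.078 (SE, adjusted p = 6.97e-11) for Pdk2 and 1.98 ± 0.13 (SE, adjusted p = 8.06e-09) for Pdk1 over iWAT.

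Pdk3 (chrX:91009946-91077540), the form least sensitive to inhibition by pyruvate, was the member with the largest change away from BAT in the comparison with iWAT. Pdk3 RPKM ran from 2.07 to 3.23 (median 2.42) in iWAT, from 4.85 to 6.09 (median 5.39) in eWAT and from 0.168 to 0.256 (median 0.211) in BAT. BAT samples held 13 to 22 reads, iWAT samples 154 to 230 and eWAT samples 264 to 383, and no ranges overlapped. Pdk3 was 9.85-fold lower in BAT than in iWAT (log2 fold change −3.30 ± 0.16 SE, adjusted p = 5.41e-10) and higher in eWAT than in iWAT (log2 fold change 0.61 on counts, adjusted p = 0.00146, and 0.71 per length, adjusted p = 1.29e-04). Pdk4 made up 69.9% ± 8.16 of the family's RPKM in iWAT and 86.7% ± 2.24 in BAT (SD, n = 6), a difference of 16.8 percentage points (exact two-sided permutation p = 0.00433, adjusted p = 0.0173 over 8 families). In eWAT its share was 34.0% ± 6.74, below that of Pdk2 at 40.97% ± 6.56. Pdk3 took 11.9% ± 2.05 in eWAT, 3.54% ± 1.03 in iWAT and 0.0446% ± 0.00839 in BAT. The shares in eWAT rest on transcript rows and were not tested. In each of the 8 families the share of 1 member was tested, and those of Ldhb and Pdk4 passed between iWAT and BAT. Shares of the other members were not tested, so a family without a pass may still differ in its make-up. Aldoc (adjusted p = 0.0563, exact permutation test, and 0.0381 without BAT sample 12 or 0.0476 by reads) and Slc16a3 (adjusted p = 0.0779, exact permutation test) did not, but Slc16a3 passed without BAT sample 12 (adjusted p = 0.0303, exact permutation test).

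**Figure D4:**
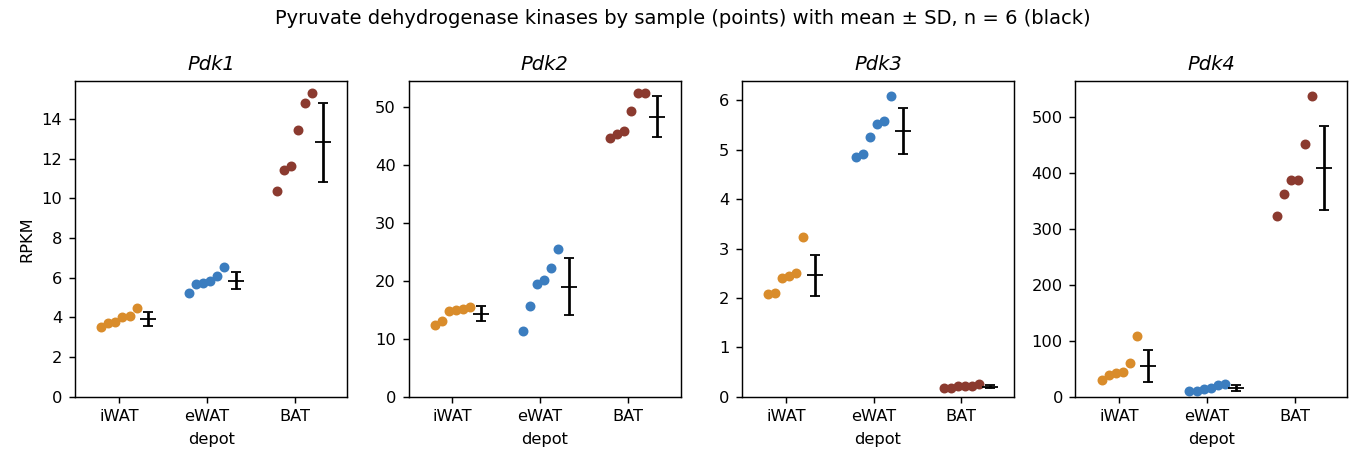
RPKM of Pdk1, Pdk2, Pdk3 and Pdk4 in each sample by depot on linear axes that start at 0, with the mean ± SD of 6 samples in black. BAT is highest for Pdk1, Pdk2 and Pdk4 and lowest for Pdk3, for which eWAT is highest.

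**Figure D5:**
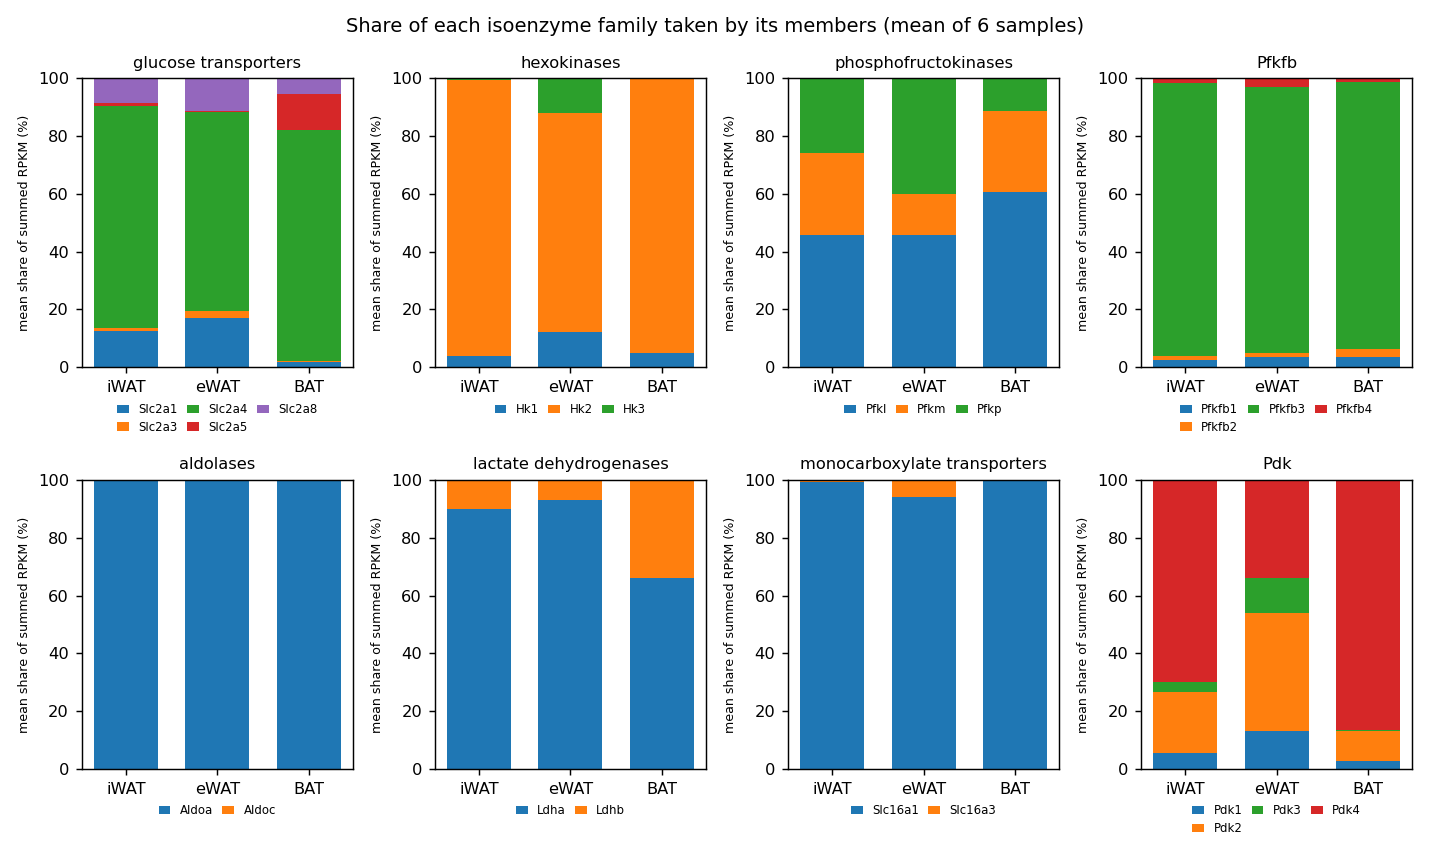
Mean share of the summed RPKM of each of 8 isoenzyme families taken by its members in iWAT, eWAT and BAT, as stacked bars from 0 to 100%, each the mean of 6 samples. The share of Ldhb is largest in BAT, that of Pdk4 falls from BAT to iWAT to eWAT, and Slc2a4, Hk2 and Pfkfb3 lead their families in all depots.

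Against eWAT, 34 members were tested on both scales. BAT was higher than eWAT for 18 and lower for 6 on both, beside 27.4% and 30.3% of the 18383 symbols tested (57.6% in either direction). The 6 lower ones were Hk3, Pdk3, Pfkfb3, Pfkfb4, Slc2a1 and Slc2a3. Each of the 6 was also lower in BAT than in iWAT. As both comparisons use the same BAT samples, this is no independent count. Between the white depots, where both groups were isolated adipocytes, 4 members were higher in eWAT and 5 lower on both scales, beside 9.44% and 7.47% of symbols (16.9% in either direction). Higher were Hk3, Pdk3, Slc16a3 and Slc2a3, and lower were Hk2, Pdk4, Slc16a1, Slc2a4 and Slc2a5. Without eWAT sample 15 there were 4 higher and 4 lower, with Slc2a5 no longer called. With a replicate block there were 3 and 3, with Hk3, Hk2 and Slc2a5 no longer called. The other 25 members gave no direction on both scales. On counts alone, BAT was higher than eWAT for 22 members and lower for 7, beside 34.7% and 35.6% of symbols (70.3% in either direction), and eWAT was higher than iWAT for 4 and lower for 9, beside 12.3% and 13.4% (25.6% in either direction).

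Genes around these steps were taken from lists by function, and are read against the 33.6% of all rows higher and 34.0% lower in BAT. Among other genes of sugar transport and glycolysis, 7 of 14 tested were higher in BAT than in iWAT and 4 lower, with a median log2 fold change of 0.28. The muscle form of phosphoglycerate mutase (Pgam2) had the largest change toward BAT, with a mean RPKM of 0.417 ± 0.188 in iWAT and 9.29 ± 18.3 in BAT (log2 fold change 4.72, adjusted p = 0.00230). That rests in large part on BAT sample 12, without which it was 2.45 (adjusted p = 0.00168). Pgam2 in BAT ran from 0.707 to 46.5. Enolase 1 (Eno1) was at 12.7 ± 1.03 in iWAT and 59.6 ± 7.84 in BAT, with a log2 fold change of 2.50. Without BAT sample 12 that of Eno1 was 2.53, above that of Pgam2. Of the 50-base windows in coding exons of Eno1, 20.5% occurred once in mm9 by an exact match, and 5.69% with up to 1 mismatch allowed. The inositol transporter Slc2a13 had the largest change away from BAT, at 7.28 ± 1.60 in iWAT and 0.0854 ± 0.0320 in BAT (log2 fold change −6.14, adjusted p = 6.87e-11). For pyruvate entry and the rest of the pyruvate dehydrogenase complex, 7 of 9 tested were higher in BAT than in iWAT and 2 lower, with a median of 1.77. Dlat, the acetyltransferase core of the complex, was at 20.8 ± 1.65 in iWAT and 86.6 ± 8.88 in BAT (log2 fold change 2.33, adjusted p = 5.68e-10). Pyruvate carboxylase (Pcx), which feeds oxaloacetate, went the other way at 161 ± 29.1 in iWAT and 81.1 ± 11.9 in BAT (log2 fold change −0.72, adjusted p = 4.68e-04).

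In the rest of the pentose phosphate pathway, 4 of 8 tested were higher in BAT than in iWAT and 2 lower. Transketolase (Tkt) was at 76.2 ± 15.1 in iWAT and 295 ± 51.8 in BAT (log2 fold change 2.22, adjusted p = 7.88e-08), and the ribose phosphate pyrophosphokinase Prps1 at 74.5 ± 12.7 in iWAT and 6.48 ± 0.602 in BAT (log2 fold change −3.25, adjusted p = 4.58e-11). For glycogen, 13 of 25 tested were higher in BAT than in iWAT and 6 lower, but 10 and 9 without TMM factors. Ppp1r3b, which targets protein phosphatase 1 to glycogen, was at 3.09 ± 1.44 in iWAT and 71.0 ± 20.3 in BAT (log2 fold change 4.82, adjusted p = 1.57e-08), and the brain form of glycogen phosphorylase (Pygb) at 50.1 ± 5.21 in iWAT and 15.3 ± 1.76 in BAT (log2 fold change −1.45, adjusted p = 8.50e-09). For the shuttles that carry cytosolic NADH into mitochondria, 7 of 9 tested were higher in BAT than in iWAT and 1 lower, with a median of 1.63. The mitochondrial glycerol phosphate dehydrogenase Gpd2 was at 7.21 ± 1.85 in iWAT and 92.1 ± 12.03 in BAT (log2 fold change 3.94, adjusted p = 7.57e-10), and Gpd1l at 9.95 ± 0.644 in iWAT and 5.99 ± 0.330 in BAT (log2 fold change −0.46, adjusted p = 6.30e-05). Among regulators of uptake and glycolysis, 8 of 20 tested were higher in BAT than in iWAT and 7 lower, with a median of 0.0492. Mlxipl, which encodes the glucose-sensing factor ChREBP, was at 8.99 ± 3.54 in iWAT and 40.4 ± 4.78 in BAT (log2 fold change 2.43, adjusted p = 5.45e-07). Sortilin (Sort1), which helps to form GLUT4 vesicles, was at 69.8 ± 7.27 in iWAT and 22.7 ± 1.54 in BAT (log2 fold change −1.35, adjusted p = 3.51e-08). Without TMM factors 4 of the regulators were higher and 8 lower.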

How the data were processed

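RNA-seq libraries from 6 samples each of iWAT adipocytes, eWAT adipocytes and BAT were used. The deposited files hold, for each row, a read count and an RPKM value. Per the study's methods, the authors mapped raw reads to mm9 and analysed the expression data with the Genomatix Genome Analyzer. The submitters' processing notes also name cutadapt 1.16 and HISAT2 2.1.0, with no role given. The authors left the counts as whole reads, and their RPKM divides a count by row length and by the sample's total. Rows are merged genes in the 12 iWAT and BAT files and single transcripts in the eWAT files. From the deposited counts, rows that reached 10 reads in 6 or more samples were tested with edgeR 4.0.16 (TMM factors, quasi-likelihood test, Benjamini-Hochberg adjustment) in R 4.3.3. Comparisons with eWAT used the most-read transcript row of a symbol, on counts and with row length as an offset. That both had to pass was decided after seeing the data. Shares of a family were compared by exact two-sided permutation tests in scipy 1.17.1.

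Values of every depot are given for the member with the highest mean RPKM of its step in iWAT or BAT, and for each member with an adjusted p under 0.05 and a log2 fold change of at least 1 in size between these depots. From each list of related genes, the gene with the largest change in each direction was named, if called and if its mean RPKM reached 5 in the higher of both depots. The members and lists were chosen with earlier results of these data known. Alternatives were DESeq2 1.42.0, limma 3.58.1 on log2(RPKM + 0.1) and log2(RPKM + 1), other scalings and filters, a replicate block and samples left out. The scripts were tested on simulated data. Totals of 22929576 to 34512470 reads per sample make counting error small except for genes with few reads. How reads with several matches were handled is not given in the sources used here.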

Additional observations from a re-analysis of the deposited data

Results flagged for a closer look

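Combinations of gene and depot with a mean RPKM of at least 1 numbered 89. In 8 of them the highest or lowest of 6 samples lay farther from the rest than Dixon's limit allows. Chance gives about 1 in 20 (4.45 of 89) if values are normally distributed, which was not tested. The combinations share the same 18 samples, so that 8 against 4.45 is no test of an excess. In BAT sample 12, Pfkm RPKM was 41.1 (12.9 to 15.1 in the other 5) and Tpi1 RPKM 74.6 (65.5 to 67.8). In eWAT sample 15, Hk3 RPKM was 22.3 (0.606 to 3.38 in the others) and Pkm2 RPKM 139 (55.7 to 87.0). In iWAT, Hk2 RPKM was 107 in sample 11 (28.5 to 57.9), Pdk3 RPKM 3.23 in sample 13 (2.07 to 2.50) and Pfkfb2 RPKM 1.71 in sample 14 (2.20 to 2.42). In BAT sample 11, Pfkfb1 RPKM was 1.26 (2.22 to 2.48). The muscle marker sum of BAT sample 12 and the macrophage marker sum of eWAT sample 15 were the highest of all samples, and their part in these values was not tested.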

How the results depend on the processing

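Of 19733 rows tested between iWAT and BAT, 13337 were called and 6345 passed with a minimum log2 fold change of 1. When only rows shared by all 18 samples were fitted, 3590 of 5733 were called. On shared rows, BAT against eWAT gave 3888 calls, 2526 with that minimum and 6021 without a filter on low counts, where more rows were tested. On these rows eWAT against iWAT gave 737, 409 with that minimum and 477 with a replicate block. On 1 row a symbol, eWAT against iWAT gave 4714 calls on counts and 9578 per length, with 4 and 12 members higher in eWAT. With the replicate block, members lower in eWAT on counts went from 9 to 4, those lower on both scales from 5 to 3 (Hk2 and Slc2a5 lost), and those higher on both from 4 to 3 (Hk3 lost). Samples with the same number did not deviate together on average (mean correlation 0.034 for iWAT and BAT, −0.030 for eWAT and BAT, −0.091 for iWAT and eWAT). The main fits therefore do not pair the samples. With 4 or 5 such pairs per comparison, these values cannot show that equal numbers are not the same mouse. Members called between iWAT and BAT numbered 21 higher and 7 lower with the block too.

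The sign of some log2 fold changes turned. For BAT over iWAT without TMM these were Hk2 (−0.039) and G6pdx (−0.26). G6pdx was also −0.26 with limma and a pseudocount of 0.1, −0.25 with 1, −0.047 without a filter and −0.13 with the replicate block. For BAT over eWAT per length they were Slc2a8 (0.15), Hk1 (−0.14), Pfkp (−0.063), Pfkfb1 (−0.98), Tpi1 (−0.46) and Pgd (−0.55), and without TMM Pfkfb2 (−0.13) and Tpi1 (−0.31). For eWAT over iWAT per length they were Slc2a1 (−0.24), Slc2a8 (−0.24), Pfkl (0.36), Pfkfb1 (0.26), Aldoa (0.30), Tpi1 (0.34), Pgam1 (−0.23), Ldha (0.27), Pdhb (0.28) and Pdk1 (0.16). With the block it was Gpi1 (−0.0095). With eWAT sample 15 or BAT sample 12 left out, Slc2a1 ran from −0.10 to 0.014, Gpi1 from −0.10 to −0.00065, Pgk1 from −0.030 to 0.12 and Pkm2 from −0.18 to 0.065, with the lower value without eWAT sample 15. The share of Pfkm in BAT minus iWAT was −4.39 percentage points without BAT sample 12 and 0.704 by reads, and that of Slc16a3 was −0.416 without BAT sample 12, both past the test without that sample. The share of Aldoc passed without BAT sample 12 (0.0172 points) and by reads (0.0180), and that of Pfkfb3 by reads (−2.73). Apart from the per-length scale, where row lengths enter, the cause was not tested.

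Leaving out BAT sample 12 or iWAT sample 14 gave 12307 to 13291 calls between iWAT and BAT. Leaving out BAT sample 12 or eWAT sample 15 gave 4135 to 4544 between eWAT and iWAT on counts, and 4 to 6 members lower in eWAT on both scales. Genes with few reads, such as Aldoc, limit what can be seen at this depth.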

Other observations

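Among the marker lists, BAT over iWAT called 6 of 6 brown adipocyte markers higher, 6 of 6 adipocyte markers lower, 3 of 6 endothelial markers higher (1 without TMM factors), 4 of 4 red blood cell markers tested higher, 3 of 6 macrophage markers lower (2 without BAT sample 12) and 1 neutrophil marker lower. Of 7 skeletal muscle markers tested, 6 were higher, and without BAT sample 12 it was 3 of 4. Lymphocyte, mesothelial and epididymis markers had too few reads for a test between these depots. The summed epididymis markers were 0 in every iWAT sample, and in eWAT the summed mesothelial markers were 1.80 to 13.7.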
